A study of Mus musculus with 7 samples.

Results

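The genes described here are 37 genes of the neutrophil lineage, the granulocytes that carry antimicrobial proteins in granules, out of 27179 Entrez genes counted in marrow-flushed femora. They were taken by symbol, and each symbol matched 1 gene. They were placed in 6 classes by what is known of them, namely 4 primary granule genes, 4 genes of the early granulocyte stage, 7 genes of secondary and tertiary granules, 7 genes for intracellular and secreted proteins of mature neutrophils, 10 genes for their receptors and surface proteins, and 5 genes that monocytes and macrophages also express. RNA came from the femoral cortical bone of 12-week-old female C57BL/6 mice, 3 labelled Dmp1Cre.EfnB2f/f and 4 labelled Dmp1Cre, as 7 libraries labelled as separate samples. Mice of both groups carried Cre recombinase driven by the Dmp1 promoter, which is active in late osteoblasts and osteocytes. The floxed Efnb2 alleles were labelled in the former group alone. The study calls the controls cousin-bred, though the labels give control 3 and Dmp1Cre.EfnB2f/f library 3 the same parent cross. It collected the samples on more than 1 day, with both genotypes on each, and the labels do not give the day. Bone ends were removed and marrow was flushed out before extraction, so granulocyte RNA came from cells left in or on the bone. In such bulk RNA, fewer cells of a type and less RNA per cell cannot be told apart.

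Neutrophils form in the marrow from promyelocytes, which first make the primary (azurophil) granules with myeloperoxidase and serine proteases. Myelocytes then make the secondary (specific) granules with lactoferrin and cathelicidin, and later cells make tertiary granules and the receptors with which mature neutrophils sense chemoattractants. The marrow holds a large reserve of mature neutrophils, which G-CSF acts on through its receptor, and residual marrow can carry mRNA of all these stages.

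The libraries held from 17245556 to 22075778 counts. The first principal component of log2 CPM (counts scaled to library size with TMM factors, as for every CPM value here) held 53.9% of the variance. Controls 1 and 4 had scores of 43.9 and 68.8 on it, and the other 5 libraries, of both genotypes, lay between -41.4 and -1.76. Efnb2, the targeted gene, had 17.9, 13.1 and 11.8 CPM in Dmp1Cre.EfnB2f/f-labelled bone and 8.49, 7.93, 6.44 and 6.36 CPM in control bone. Its level went against the labels, since each library labelled deficient was above every control, as in 5.05% of all genes tested. The libraries are therefore named by their labels. For Efnb2, edgeR's quasi-likelihood test gave an unadjusted p-value of 0.0016 and an adjusted p-value of 0.511. Gene-level counts do not separate out the floxed part, and whole bone also holds cells without Dmp1Cre activity. By PCR of the targeted region in cells sorted from younger mice, the study reported effective targeting in osteocytes and Efnb2 kept in non-osteocytic cells. The labels name 4 parent crosses. Dmp1Cre.EfnB2f/f library 3 and control 3 shared one, Dmp1Cre.EfnB2f/f libraries 1 and 2 came from another, controls 1 and 2 from a further one and control 4 from the last.

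All 37 genes were detected in every library, the lowest value being 148 counts for Asprv1, and all 37 passed the filter on low counts. Together they took 1.72%, 2.08% and 2.13% of the counts in Dmp1Cre.EfnB2f/f libraries 1, 2 and 3, and 2.48%, 2.83%, 2.42% and 2.54% in controls 1 to 4. The 2 ranges did not overlap. Per length, the most abundant members in the controls were S100a9 and S100a8, which encode the subunits of calprotectin, with mean levels of 8811 ± 2463 and 8034 ± 936 RPKM (SD, n = 4), within each other's spread. Ngp at 3167 ± 433 RPKM and Camp at 2415 ± 502 RPKM followed (SD, n = 4). The least abundant per length were Rasgrp4 at 14.8 ± 0.793 RPKM, Trem1 at 12.3 ± 0.773 RPKM and Clec5a at 8.90 ± 4.14 RPKM (SD, n = 4).

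Granulocyte mRNA was lower on average in the Dmp1Cre.EfnB2f/f-labelled libraries for every one of the 37 genes, against 48.7% of the 15098 genes tested. With edgeR's quasi-likelihood test 0 of the 37 passed an adjusted p-value of 0.05 in either direction, where the share of all genes was also 0%. At an unadjusted p-value under 0.05, 21 of the 37 were lower and 0 were higher, where 5.03% of all genes were lower and 4.63% higher. For 17 of the 37, all 3 libraries labelled Dmp1Cre.EfnB2f/f lay below all 4 controls, a pattern found in 6.3% of all genes, and for 0 of the 37 they lay above, as in 5.05% of all genes. Scaled to library totals alone, 15 of the 37 did not overlap, where 4.61% of all genes did so. The median log2 fold change was -0.53 over the 37 genes and 0.01 over all genes tested. Adjusted p-values of the members from edgeR ran from 0.511 to 0.989, so none of the differences of single genes below passed that threshold in this test. The 21 genes were Prtn3, Ctsg, Fcnb, Cebpe, Ltf, Lcn2, Cd177, Hp, Pglyrp1, Padi4, Asprv1, Rasgrp4, Csf3r, Fpr1, Ly6g, Ltb4r1, Clec4d, Trem1, Trem3, Lyz2 and Ncf1, and for each edgeR gave 0.511 as the adjusted p-value. Log2 fold changes, or log2 differences, are given below with their standard errors as ± and come from the same edgeR fit across all genes. Of the members, 6 had an unadjusted p-value under 0.05 with all libraries and again when any 1 library was left out. They were Cd177, Pglyrp1, Padi4, Asprv1, Rasgrp4 and Ly6g, and the share of all genes that did the same was not counted. The count of 21 depended on single libraries: it was 8 without Dmp1Cre.EfnB2f/f library 1, 11 without library 2 and 13 without control 1. The share of all genes that were lower at this p-value also moved in these fits, to 1.03%, 1.78% and 4.02%.

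**Figure D1:**
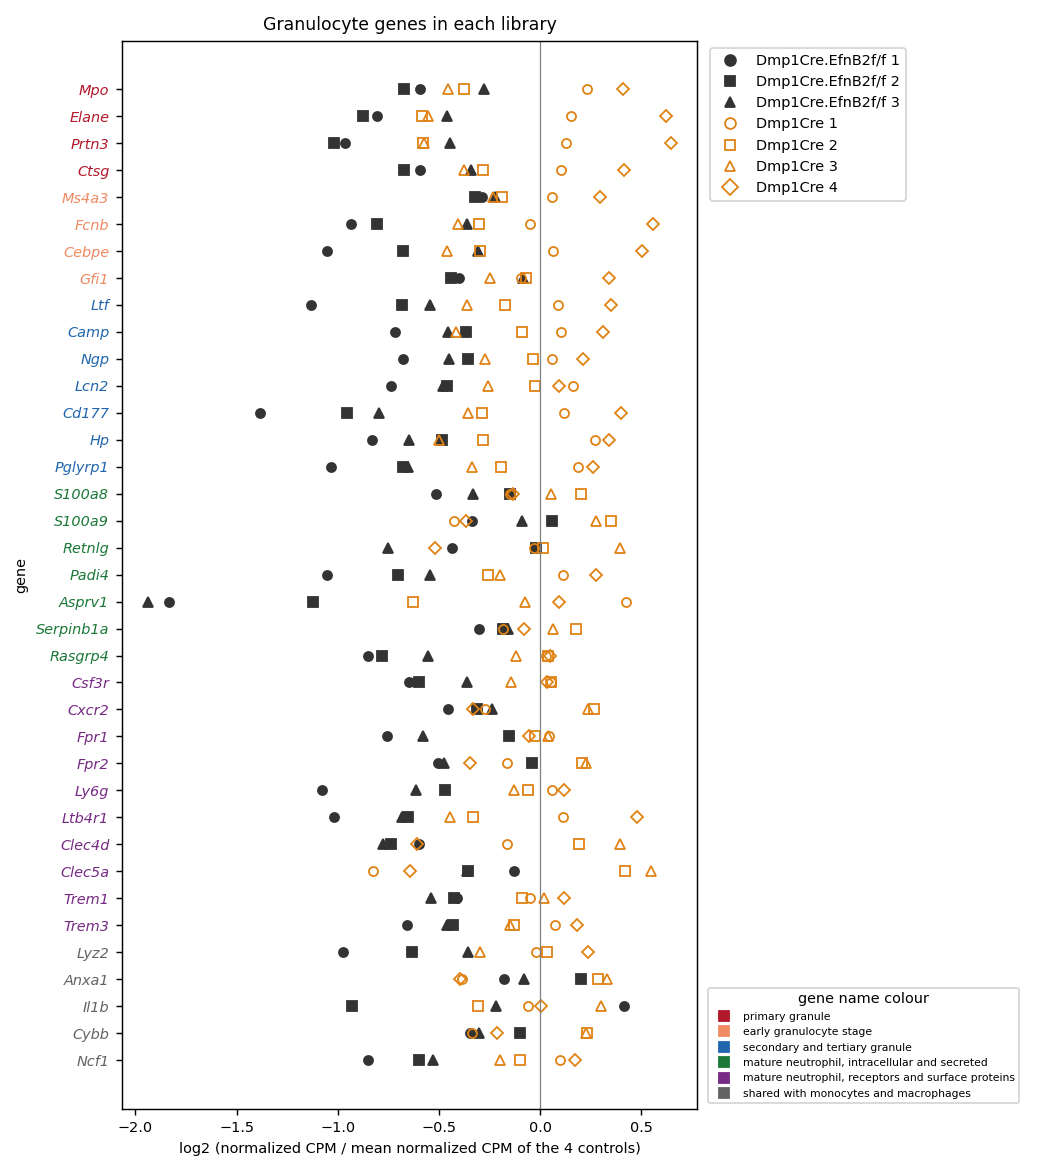
Normalized CPM of each of the 37 genes in each library, as log2 of its ratio to the mean of the 4 controls (x axis), with filled symbols for the 3 libraries labelled Dmp1Cre.EfnB2f/f and open symbols for the 4 controls. The filled symbols lie to the left of all open ones for 17 genes, and Asprv1 reaches furthest to the left, while control 4 is furthest to the right in all 8 genes of the primary granule and early classes.

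**Figure D2:**
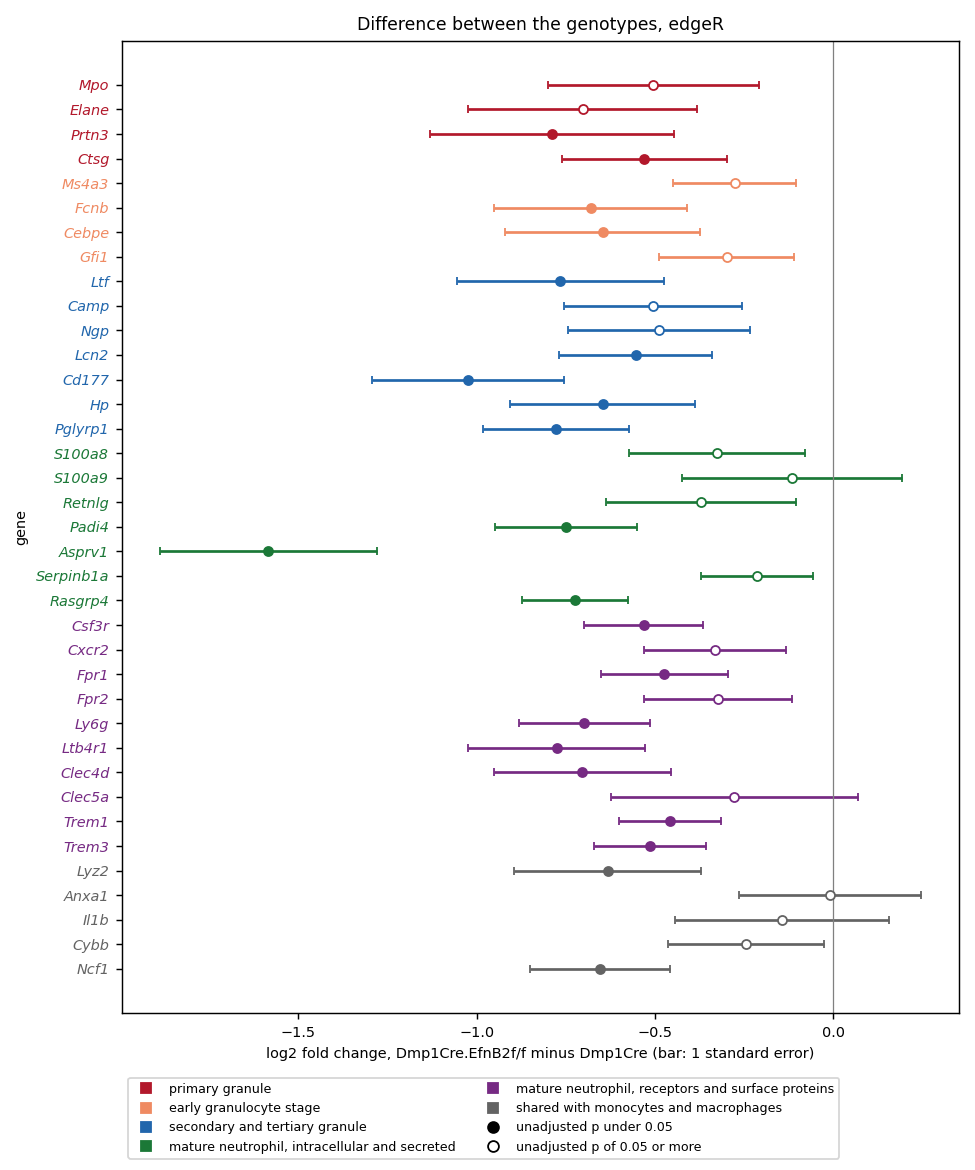
Log2 fold change of each gene between the libraries labelled Dmp1Cre.EfnB2f/f and the controls from edgeR, with bars of 1 standard error and filled points at an unadjusted p-value under 0.05. All 37 points lie below 0, from -1.58 for Asprv1 to -0.01 for Anxa1, and 21 are filled.

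The primary granule genes encode myeloperoxidase (Mpo) and the serine proteases neutrophil elastase (Elane), proteinase 3 (Prtn3) and cathepsin G (Ctsg). Elane and Prtn3 are neighbors on chromosome 10, 3137 bases apart with 0 genes between them. The RefSeq promoter windows (GRCm38.p6) of these 4 genes are shown because all 4 held the letters GAGGAA, the core of sites bound by the myeloid factor PU.1 and other ETS factors, on one strand or the other. Each stretch covers the 250 bases before the annotated start, on the strand of the gene, with GAGGAA in capitals, at chr11:87793534-87793783 (plus strand) for Mpo, chr10:79886062-79886311 (plus) for Elane, chr10:79879417-79879666 (plus) for Prtn3 and chr14:56102575-56102824 (minus) for Ctsg.
Mpo: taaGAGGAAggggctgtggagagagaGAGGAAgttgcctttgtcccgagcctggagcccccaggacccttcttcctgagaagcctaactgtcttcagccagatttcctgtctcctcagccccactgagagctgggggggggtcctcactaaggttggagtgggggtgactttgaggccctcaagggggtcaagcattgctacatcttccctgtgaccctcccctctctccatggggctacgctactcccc
Elane: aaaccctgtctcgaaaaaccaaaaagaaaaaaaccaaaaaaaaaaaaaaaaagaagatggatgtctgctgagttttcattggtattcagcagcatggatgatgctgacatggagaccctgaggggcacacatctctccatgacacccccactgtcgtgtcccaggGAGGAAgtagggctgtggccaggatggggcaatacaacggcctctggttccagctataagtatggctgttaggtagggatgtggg
Prtn3: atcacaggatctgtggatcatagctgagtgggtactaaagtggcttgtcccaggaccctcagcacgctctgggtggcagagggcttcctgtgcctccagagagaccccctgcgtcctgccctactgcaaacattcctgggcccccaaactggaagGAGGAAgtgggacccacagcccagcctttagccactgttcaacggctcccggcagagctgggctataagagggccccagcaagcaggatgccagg
Ctsg: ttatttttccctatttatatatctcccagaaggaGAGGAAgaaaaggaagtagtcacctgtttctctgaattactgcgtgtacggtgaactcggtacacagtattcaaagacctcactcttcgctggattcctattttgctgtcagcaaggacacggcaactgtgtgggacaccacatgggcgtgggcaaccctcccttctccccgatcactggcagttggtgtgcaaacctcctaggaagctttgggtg
Such a match was found in 23.1% of all 27025 windows, and in 18 of the 32 members with a window. It is a match of letters and says nothing of binding.

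Mpo had 1311, 1241 and 1629 CPM in Dmp1Cre.EfnB2f/f-labelled bones 1, 2 and 3 and 2324, 1523, 1440.2 and 2621 CPM in Dmp1Cre bones 1 to 4. Library 3 labelled Dmp1Cre.EfnB2f/f lay above controls 2 and 3, and the groups overlapped. The log2 fold change was -0.50 ± 0.29. Elane had 195, 187 and 248 CPM against 380.1, 228, 233 and 526 CPM, a log2 fold change of -0.70 ± 0.32. Prtn3 had 228, 220 and 327 CPM against 487, 299, 299 and 698 CPM, with a log2 difference of -0.79 ± 0.34. In both proteases controls 1 and 4 were highest, controls 2 and 3 were close to each other, and library 3 labelled Dmp1Cre.EfnB2f/f lay between the pairs. Ctsg had 165, 156 and 196 CPM against 267, 204, 191 and 331 CPM, so that library 3 labelled Dmp1Cre.EfnB2f/f exceeded control 3 alone, with a log2 fold change of -0.53 ± 0.23. The summed level of the 4 genes was 1898, 1803 and 2400.0 CPM in Dmp1Cre.EfnB2f/f-labelled bone and 3458, 2254, 2164 and 4177 CPM in control bone. All 4 genes overlapped between the groups. Of the 4, 2 had an unadjusted p-value under 0.05, where 5.03% of all genes were lower, and the median log2 fold change was -0.62. With controls 1 and 4 left out it was -0.16.

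The 4 genes of the early granulocyte stage were Ms4a3, a membrane protein of granulocyte and monocyte progenitors, Fcnb, the secreted lectin ficolin B of immature myeloid cells, and the transcription factor genes Cebpe, needed for secondary granules to form, and Gfi1, a repressor needed for neutrophil differentiation. Fcnb had 89.9, 98.3 and 134 CPM in Dmp1Cre.EfnB2f/f-labelled bone and 166, 139, 129.9 and 253 CPM in control bone. Its log2 fold change was -0.68 ± 0.27, and library 3 labelled Dmp1Cre.EfnB2f/f was above control 3. Cebpe had 39.9, 51.7 and 66.9 CPM against 86.3, 67.3, 60.1 and 117 CPM, a log2 fold change of -0.65 ± 0.27. Here too the groups overlapped only through library 3 and control 3. Ms4a3 had 95.4, 93.3 and 99.9 CPM against 121, 102, 99.2 and 143 CPM, and Gfi1 had 39.4, 38.3 and 49.1 CPM against 48.7, 49.6, 43.9 and 65.9 CPM, with log2 fold changes of -0.28 ± 0.17 and -0.30 ± 0.19 and overlapping groups. Control 4 was the highest library for all 4 genes, as for the 4 primary granule genes.

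The genes of secondary and tertiary granules overlapped less often between the groups than the primary granule and early genes. Their median log2 fold change was -0.65, close to the -0.62 of the primary granule genes. Of the 7, 5 did not overlap between the groups, where 6.3% of all genes lay below all controls. At an unadjusted p-value under 0.05, 5 of 7 were lower, where 5.03% of all genes were. These 7 genes encode lactoferrin (Ltf), which binds iron, the cathelicidin Camp, neutrophilic granule protein (Ngp) and lipocalin 2 (Lcn2), which binds bacterial siderophores. They also encode the surface and granule glycoprotein Cd177, haptoglobin (Hp) and peptidoglycan recognition protein 1 (Pglyrp1). Camp, Ngp and Ltf lie in this order on chromosome 9, with 570.4 kb between Camp and Ngp and 596 kb between Ngp and Ltf. The promoter windows of Ltf, Ngp and Lcn2 are shown because they held the letters TTGCNNAA, a form of the site bound by C/EBP factors, on one strand or the other. The windows are chr9:111019042-111019291 (plus strand), chr9:110419558-110419807 (plus) and chr2:32387740-32387989 (minus), with the match in capitals.
Ltf: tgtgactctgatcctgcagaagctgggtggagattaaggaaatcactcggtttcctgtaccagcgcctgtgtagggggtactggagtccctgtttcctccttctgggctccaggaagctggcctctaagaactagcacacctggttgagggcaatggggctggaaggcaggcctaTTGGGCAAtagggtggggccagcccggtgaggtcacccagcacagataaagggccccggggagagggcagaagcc
Ngp: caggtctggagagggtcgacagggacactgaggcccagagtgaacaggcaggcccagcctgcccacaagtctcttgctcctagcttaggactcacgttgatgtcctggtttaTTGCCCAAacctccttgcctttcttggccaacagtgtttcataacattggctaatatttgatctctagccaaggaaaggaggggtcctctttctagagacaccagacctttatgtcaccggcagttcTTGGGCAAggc
Lcn2: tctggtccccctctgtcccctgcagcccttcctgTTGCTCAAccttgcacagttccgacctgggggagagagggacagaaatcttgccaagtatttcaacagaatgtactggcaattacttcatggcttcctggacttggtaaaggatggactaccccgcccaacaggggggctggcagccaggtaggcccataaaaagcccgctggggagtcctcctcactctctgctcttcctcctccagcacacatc
This match was found in 9.55% of all windows and in 9 of the 32 members with a window. Of the secondary and tertiary granule genes with a window 3 of 6 had it, and of the primary granule genes 0 of 4. These are too few windows to compare the classes.

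Cd177 had 345, 465 and 518 CPM in Dmp1Cre.EfnB2f/f-labelled bone and 976, 737, 703 and 1187 CPM in control bone. The groups were well apart, with the highest of the former at 518 and the lowest of the latter at 703 CPM. Its log2 fold change of -1.02 ± 0.27 corresponds to 0.492 of the control level. Pglyrp1 had 76.3, 97.8 and 99.6 CPM against 178, 137, 124 and 187 CPM, a log2 fold change of -0.78 ± 0.20, again without overlap. Ltf had 1584, 2164 and 2383 CPM against 3693, 3075, 2703 and 4428 CPM, with a mean of 2044 ± 413 CPM (SD, n = 3) in the former and 3475 ± 755 CPM (SD, n = 4) in the latter. The log2 fold change of Ltf was -0.77 ± 0.29, and library 1 labelled Dmp1Cre.EfnB2f/f was lowest, as it was for all 7 genes of this class. Lcn2 had 719, 870 and 856 CPM against 1337, 1177, 1000.1 and 1274 CPM, with a log2 difference of -0.55 ± 0.22. Ngp also did not overlap, with 2296, 2872 and 2692 CPM against 3824, 3584, 3046 and 4252 CPM, though at a log2 difference of -0.49 ± 0.25 its unadjusted p-value was over 0.05. Camp and Hp were the members whose groups overlapped. Camp had 880.0, 1122 and 1054 CPM against 1551, 1358, 1084 and 1794 CPM, a log2 difference of -0.51 ± 0.25, so that control 3 lay below library 2 labelled Dmp1Cre.EfnB2f/f. Hp had 305, 388 and 347 CPM against 654, 446, 384 and 687 CPM, a log2 fold change of -0.65 ± 0.26, and overlapped through the same pair of libraries. The summed level of the 7 genes averaged 7378 ± 1015 CPM (SD, n = 3) in the former and 11395 ± 2066 CPM (SD, n = 4) in the latter, a ratio of 0.647.

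**Figure D3:**
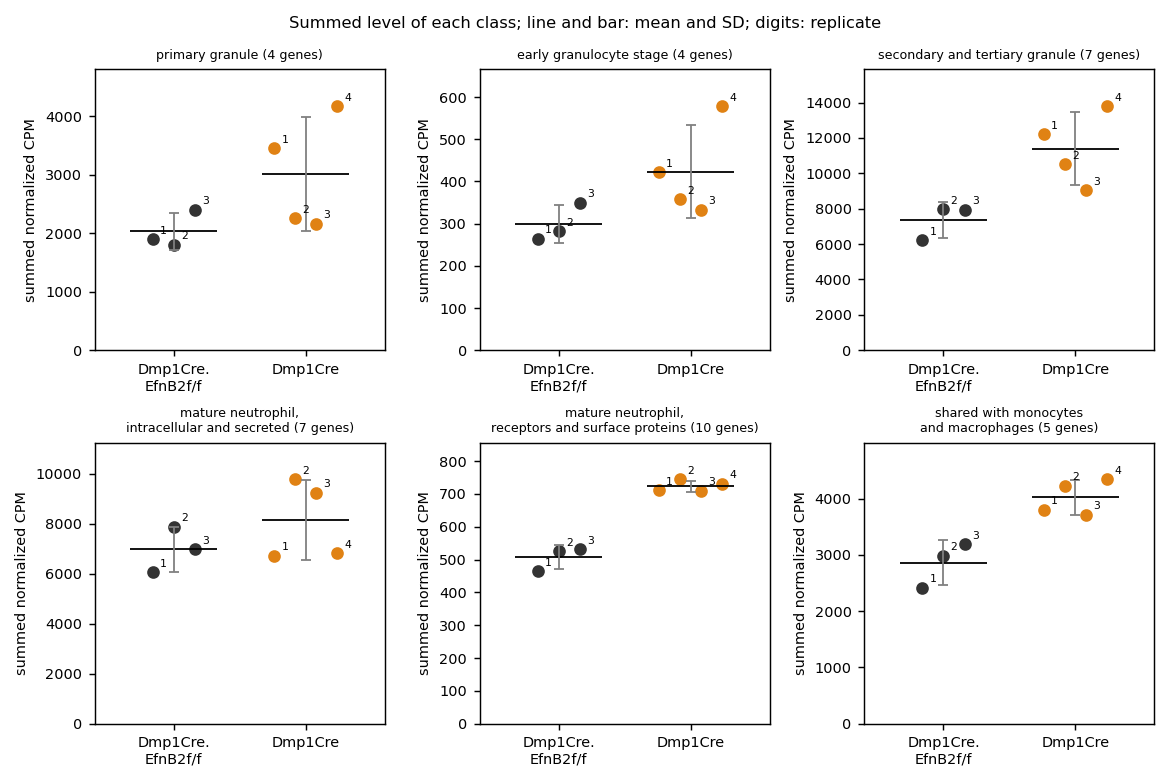
Summed normalized CPM of the genes of each class in each library, with the mean as a line, the SD as a bar and the replicate number beside each point. The groups do not overlap in the secondary and tertiary granule, receptor, and shared classes, while in the primary and early classes controls 2 and 3 lie among or close to the libraries labelled Dmp1Cre.EfnB2f/f and in the intracellular class controls 1 and 4 do.

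Intracellular and secreted proteins of mature neutrophils split into genes that were well apart and abundant genes that were not. Asprv1, a retroviral-type aspartic protease that neutrophils and skin express, had 8.39, 13.7 and 7.80 CPM in Dmp1Cre.EfnB2f/f-labelled bone and 40.0, 19.3, 28.3 and 31.8 CPM in control bone. Its log2 fold change of -1.58 ± 0.30 was the furthest from 0 of the 37, at 0.334 of the control level. Rasgrp4, an activator of Ras in neutrophils and mast cells, had 38.0, 39.9 and 46.7 CPM against 70.0, 70.4, 63.2 and 71.0 CPM. The controls lay close together, and the log2 fold change was -0.72 ± 0.15. The span of Rasgrp4 overlaps that of Fam98c, with which reads could be shared. Padi4, the enzyme that citrullinates histones when neutrophils release chromatin, had 53.0, 67.6 and 75.4 CPM against 119, 91.8, 95.9 and 133 CPM, with a log2 difference of -0.75 ± 0.20 and no overlap. The most abundant pair behaved otherwise. S100a9 had 3398, 4469 and 4034 CPM against 3197, 5472, 5198 and 3332 CPM, so that controls 1 and 4 were the lowest of the 7 libraries and controls 2 and 3 the highest. Its log2 fold change was -0.12 ± 0.31. S100a8, 22.6 kb from S100a9 on chromosome 3, had 2202, 2834 and 2498 CPM against 2842, 3617, 3266 and 2872 CPM, a log2 fold change of -0.33 ± 0.25. Its groups did not overlap, but by a gap between 2834 and 2842 CPM, and on library totals alone they did. For Retnlg, a resistin-like secreted protein, the log2 fold change was -0.37 ± 0.27, and for Serpinb1a, an inhibitor of elastase, it was -0.21 ± 0.16, both with overlapping groups.

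For the receptors and surface proteins, 6 of 10 genes did not overlap, where 6.3% of all genes lay below all controls. At an unadjusted p-value under 0.05, 7 of 10 were lower, where 5.03% of all genes were. Csf3r, the G-CSF receptor, had 183, 190.2 and 224 CPM in Dmp1Cre.EfnB2f/f-labelled bone and 298, 299, 259.9 and 294 CPM in control bone. Every library of the former lay below every control, and the log2 fold change was -0.53 ± 0.17. Ly6g, the surface antigen used to define mouse neutrophils, had 20.7, 31.4 and 28.5 CPM against 45.4, 41.9, 39.8 and 47.3 CPM, with a log2 difference of -0.70 ± 0.18. Ltb4r1, a receptor for leukotriene B4, had 41.7, 53.9 and 52.7 CPM against 91.4, 67.1, 62.2 and 118 CPM, with a log2 difference of -0.78 ± 0.25. None of these 3 genes overlapped between the groups. Trem1 and Trem3 encode activating receptors and lie 749 bases apart on chromosome 17. Trem1 had 27.7, 27.4 and 25.4 CPM against 35.6, 34.6, 37.3 and 39.9 CPM, with a log2 difference of -0.46 ± 0.14. Trem3 had 38.1, 44.5 and 43.5 CPM against 63.1, 54.9, 54.0 and 68.0 CPM, with a log2 difference of -0.51 ± 0.16, and neither overlapped. As paralogs, they could share reads, and so could the formyl peptide receptor genes Fpr1 and Fpr2, 3884 bases apart on the same chromosome. Fpr1 had 19.5, 29.5 and 22.0 CPM against 33.8, 32.3, 33.7 and 31.6 CPM, with a log2 fold change of -0.47 ± 0.18. Its groups did not overlap here but did on library totals alone. That leaves 5 of the 10 receptor genes without overlap on that scale, where 4.61% of all genes lay below all controls. Fpr2 overlapped, with 43.6, 60.2 and 44.5 CPM against 55.2, 71.4, 72.4 and 48.6 CPM and a log2 difference of -0.32 ± 0.21. Cxcr2, the chemokine receptor through which neutrophils leave the marrow, had 44.0, 48.6 and 51.2 CPM against 49.9, 72.5, 71.1 and 48.0 CPM, a log2 difference of -0.33 ± 0.20. In these last 2 genes controls 1 and 4 lay among the libraries labelled Dmp1Cre.EfnB2f/f. The lectin receptors followed the same order of controls. Clec4d had 14.6, 13.2 and 12.9 CPM against 19.7, 25.2, 29.0 and 14.5 CPM, with a log2 difference of -0.70 ± 0.25. Clec5a had 31.1, 26.6 and 26.5 CPM against 19.2, 45.4, 49.8 and 21.7 CPM, with a log2 difference of -0.28 ± 0.35. Both overlapped, Clec4d through control 4 and Clec5a through controls 1 and 4. Summed over the 10 genes, the level averaged 507 ± 37.1 CPM (SD, n = 3) in the former and 724 ± 16.7 CPM (SD, n = 4) in the latter, and the controls ranged only from 709 to 744 CPM.

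Among the 5 genes that monocytes and macrophages also express, Lyz2 (lysozyme) and Ncf1 (a cytosolic subunit of the phagocyte NADPH oxidase) did not overlap. Lyz2 had 1252, 1583 and 1921 CPM in Dmp1Cre.EfnB2f/f-labelled bone and 2422, 2515, 2002 and 2895 CPM in control bone, a log2 fold change of -0.63 ± 0.26. Its paralog and neighbor Lyz1, with which reads could be split, had between 5.45 and 11.7 CPM. Ncf1 had 301, 359 and 377 CPM against 583, 507, 475 and 612 CPM, with a log2 difference of -0.65 ± 0.20. Cybb, the membrane subunit of the same oxidase, had 398, 473 and 412 CPM against 402, 596, 593 and 438 CPM, so the oxidase subunits differed in their separation. Its log2 fold change was -0.25 ± 0.22. Il1b, which encodes the cytokine interleukin-1 beta and overlaps the antisense gene Il1bos, was highest in library 1 labelled Dmp1Cre.EfnB2f/f with 35.5 CPM and lowest in library 2 with 14.0 CPM, and its log2 fold change was -0.14 ± 0.30. Anxa1, annexin A1, had 427, 555 and 458 CPM against 369, 589, 607 and 367 CPM and a log2 fold change of -0.01 ± 0.26, whose sign turned with scaling to library totals alone (0.049) and with upper-quartile factors (0.0084).

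The granulocyte classes differed in how the libraries were ordered. In the parent cross shared by both genotypes, Dmp1Cre.EfnB2f/f library 3 lay above control 3 for all 4 primary granule genes and all 4 early genes, with log2 ratios from 0.01 for Ms4a3 to 0.18 for Mpo. It lay below control 3 for the other 29 genes, with a median log2 ratio of -0.18 for secondary and tertiary granules, -0.39 for intracellular and secreted proteins, -0.52 for receptors and -0.41 for the shared genes. The widest within-cross ratios were those of Asprv1 (-1.86), Clec4d (-1.17) and Retnlg (-1.15). These are 1 library of each genotype, so they have no replicate. The share of all genes with library 3 below control 3 was not counted. With the parent cross as a block in edgeR, the genotype term is this 1 library against 1, and its median over all genes tested was 0.004. The spread comes only from the pairs of libraries that share a cross within a genotype. That fit gave the same 3 genes an unadjusted p-value under 0.05, where 0.987% of all genes were lower, and adds no evidence to the ratios. Among the controls, both of controls 1 and 4 exceeded both of controls 2 and 3 for 20 of the 37 genes, which included the 4 primary granule genes, 3 of the 4 early genes and all 7 of secondary and tertiary granules. The reverse held for 10 genes, all in the mature and shared classes. The shares of all genes in these orders were not counted, and controls 1 and 4 also stood apart on the first principal component. Per length, S100a9 exceeded Mpo 13.5-fold, 18.8-fold and 12.9-fold in the Dmp1Cre.EfnB2f/f-labelled libraries, and 7.18-fold, 18.7-fold, 18.8-fold and 6.63-fold in controls 1 to 4. The ratio of summed secondary and tertiary granule CPM to primary granule CPM ran from 3.27 to 4.42 in the former and from 3.31 to 4.66 in the latter, and did not separate the groups. Across the 37 genes, library 1 labelled Dmp1Cre.EfnB2f/f was the lowest of all 7 libraries for 23 and control 4 the highest for 22. Shares over all genes were not counted here, and the same libraries also had the lowest and highest scores on the first principal component.

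**Figure D4:**
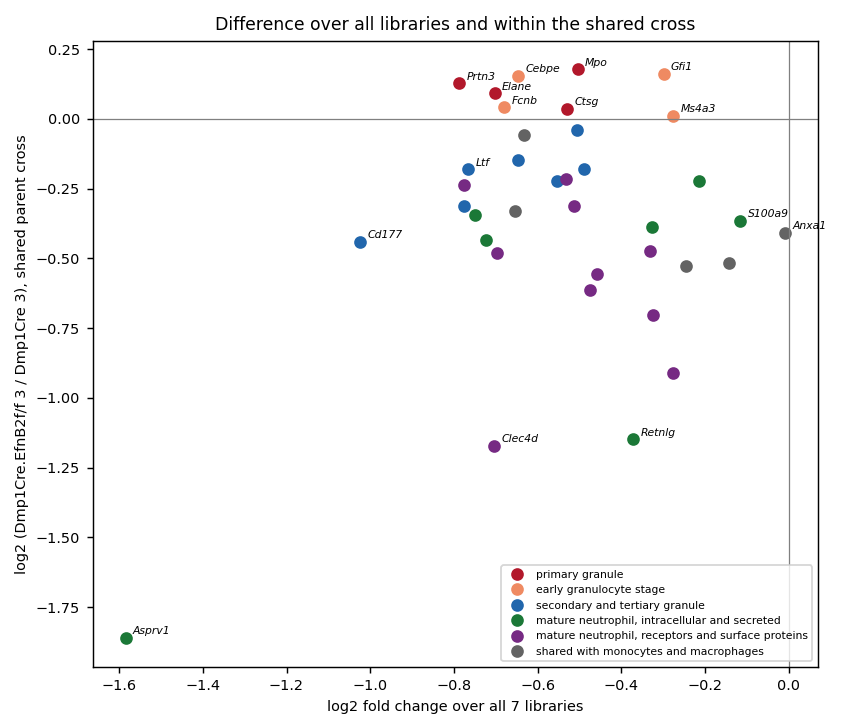
Log2 fold change over all 7 libraries (x axis) against the log2 ratio of Dmp1Cre.EfnB2f/f library 3 to control 3, which shared a parent cross (y axis), with 1 point per gene colored by class. All 8 primary granule and early genes lie above 0 on the y axis and the other 29 lie below it, and since the x axis includes the same pair the axes are not independent.

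Granulocyte genes outside the 37 were taken from a list of 40, of which 37 passed the filter. Of these, 36 had a lower mean in the libraries labelled Dmp1Cre.EfnB2f/f, where 48.7% of all genes did. At an unadjusted p-value under 0.05, 16 were lower and 0 higher, where 5.03% of all genes were lower and 4.63% higher. For 13, all 3 libraries lay below all controls, as in 6.3% of all genes. The median log2 fold change was -0.46. This list too was chosen with earlier results of these data known. Adam8, a metalloprotease of granulocyte surfaces, had 93.8, 89.6 and 92.9 CPM against 148, 132, 140.3 and 147 CPM, a log2 fold change of -0.62 ± 0.14. Hdc, the histamine-forming enzyme, had 80.7, 67.0 and 96.2 CPM against 172, 128, 125 and 156 CPM, with a log2 difference of -0.84 ± 0.20. Itgam, the CD11b integrin chain that macrophages also carry, had 265, 303 and 334 CPM against 521, 517, 489 and 469 CPM, with a log2 difference of -0.73 ± 0.18. All 3 were without overlap. Of 24 regulators and signals of granulopoiesis 20 were tested, of which 15 had a lower and 5 a higher mean, with a median log2 fold change of -0.21. Their summed level overlapped between the groups, with 3241 to 3535 CPM against 3157 to 4171 CPM. At an unadjusted p-value under 0.05, 5 genes were lower and 0 higher, where 5.03% of all genes were lower and 4.63% higher. These 5 included Csf2ra and Csf2rb, the chains of the GM-CSF receptor, with log2 fold changes of -0.62 ± 0.15 and -0.57 ± 0.18, and Il17ra, a receptor chain for interleukin-17, with a log2 difference of -0.39 ± 0.15.

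Other cell types also differed between these libraries, and their part in the granulocyte values was not tested. Beside the counts below, 5.03% of all genes were lower and 4.63% higher at an unadjusted p-value under 0.05. Of all genes, 6.3% lay below all controls in every library labelled Dmp1Cre.EfnB2f/f. The 16 monocyte and macrophage markers summed to 1700 to 1764 CPM in Dmp1Cre.EfnB2f/f-labelled bone and to 1987 to 2429 CPM in control bone, with 14 of 16 lower on average and 5 of 16 at an unadjusted p-value under 0.05, among them Ly6c2, Siglec1 and Cd163. The 12 erythroid markers summed to 9653 to 18445 CPM against 20974 to 57477 CPM, with the highest sum in control 4 and the lowest in Dmp1Cre.EfnB2f/f library 1, the same libraries that were highest and lowest for most granulocyte genes. Of these 12, 11 had a lower mean, 6 did not overlap and 6 were lower at an unadjusted p-value under 0.05, with a median log2 fold change of -0.76, further from 0 than the -0.53 of the 37 granulocyte genes. In the other direction, all 9 skeletal muscle markers had a higher mean in the libraries labelled Dmp1Cre.EfnB2f/f, with sums of 25317 to 38034 CPM against 12194 to 26515 CPM, and control 3 lay within the range of the former. Of these 9, 4 were higher at an unadjusted p-value under 0.05. All 10 endothelial and stromal markers also had a higher mean, 3 of them (Flt1, Tek and Emcn) at an unadjusted p-value under 0.05. B lineage markers were higher on average in 10 of 12 cases, with Ebf1 as the 1 gene at an unadjusted p-value under 0.05. Markers of progenitors, T and NK cells, megakaryocytes, osteoclasts, and osteoblasts and osteocytes held 0 genes with an unadjusted p-value under 0.05, and had median log2 fold changes from -0.18 to 0.05. The same was true of markers of eosinophils, basophils and mast cells, with a median of -0.34. Osteoblast and osteocyte markers summed to 72054 CPM in control 1 and 35594 CPM in control 4, against 14436 to 24730 CPM in the other 5 libraries. Of the 8 cell cycle genes, all had a lower mean and 1, Mcm5, had an unadjusted p-value under 0.05. Each list held 0 genes at 0 counts in every library.

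**Figure D5:**
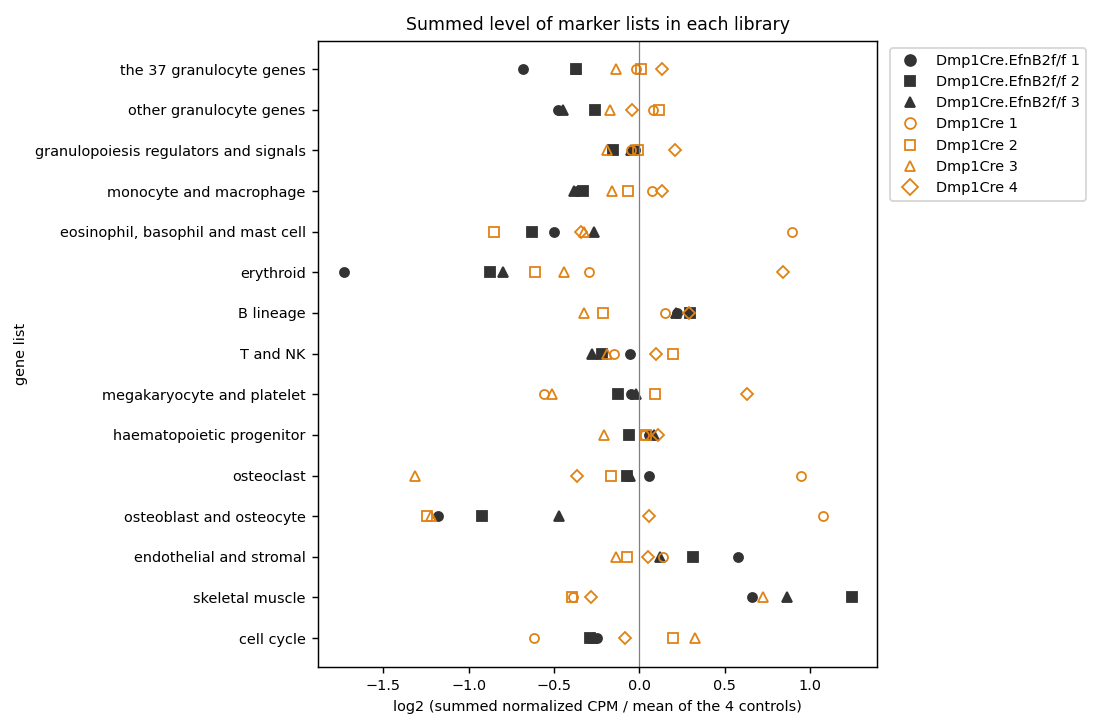
Summed normalized CPM of the 37 granulocyte genes and of each marker list in each library, as log2 of the ratio to the mean of the 4 controls. The libraries labelled Dmp1Cre.EfnB2f/f (filled) lie below all controls (open) for the 37 genes, the other granulocyte genes, the monocyte and macrophage list and the erythroid list.

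The number of granulocyte genes called depended on the test. DESeq2 called 4 of the 37 lower at an adjusted p-value of 0.05, namely Cd177, Asprv1, Rasgrp4 and Ncf1, where it called 0.318% of all genes lower. The study's limma pipeline, run without its block for the day of collection because the labels do not give the day, called 16 of the 37 lower, where it called 7.39% of all genes lower. With controls 1 and 4 left out, edgeR gave 20 of the 37 lower at an unadjusted p-value under 0.05, where 7.22% of all genes were lower. Leaving out muscle, erythroid and bone marker genes before scaling kept 15065 of 15098 genes. It gave 21 of the 37, where 5.01% of all genes were lower, and the median log2 fold change of the 37 stayed at -0.53. So small a removal hardly moved the scaling and does not test the part of those cell types.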

How the data were processed

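RNA from the flushed femora was sequenced as 7 libraries of paired-end reads. The authors mapped them to mm10 with Rsubread, counted reads per Entrez gene with featureCounts, and deposited raw counts without normalization or gene filter. The strand setting is not given in the sources used here. The submitters' processing notes also name bcl2fastq 2.17.1.14. Gene lengths in the files were used for RPKM. The counts of the single libraries equal those of the deposited series table in all 7.

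A gene was kept if 3 or more libraries reached 0.65 CPM (16302 genes), and 1204 were left out as immunoglobulin segments, predicted genes, pseudogenes, ribosomal RNA, Y-linked or Xist, or without symbol, by symbols and RefSeq gene types. The 15098 left were tested with edgeR 4.0.16 in R 4.3.3 (TMM, robust quasi-likelihood test, Benjamini-Hochberg). Standard errors are the log2 fold change over the square root of F. limma 3.58.1 and DESeq2 1.42.0 were alternatives, and all were run on simulated data. The simulated libraries were drawn independently, without shared parent crosses, so they do not show how the tests behave on these data. Pairs of libraries of 1 genotype differed beyond sampling noise (chi-square per degree of freedom of 33.4 or more). No source used here says outright that each library is 1 mouse, so p-values measure the spread between these samples. The main fit took libraries of the same parent cross as independent. It also had no block for the day of collection, which the study's own model included.

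The members, classes and lists were chosen with earlier results of these data known. All members are named, and of other genes Efnb2, overlapping or near-identical neighbors, and up to 3 genes per list of lowest unadjusted p. For promoters, 7 letter patterns were searched on both strands in the first RefSeq window listed per gene, which 32 members had. The pair shown were picked after their matches were seen. The others were GAGGAAGT, which overlaps the first pattern (5 members, 2.44% of windows), TTNNGNAA, a looser C/EBP pattern that can overlap it (19, 36.9%), TGTGGT (6, 14.2%), TATAAA (10, 13.0%) and a GFI1 pattern (0, 2.24%).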

Additional observations from a re-analysis of the deposited data

Results flagged for a closer look

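A control lay far from the other 3 in 2 of 44 sets of control values examined, where chance gives about 2.2. For Rasgrp4 it was control 3, with 63.2 CPM against 70.0 to 71.0 CPM in the others, a gap of 0.865 of the range of the controls. For Csf3r it was again control 3, with 259.9 CPM against 294 to 299 CPM, a gap of 0.873 of the range. In both genes control 3 was the control nearest to the libraries labelled Dmp1Cre.EfnB2f/f and still above all 3.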

How the results depend on the processing

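With edgeR's quasi-likelihood test 0 of all genes and 0 of the 37 members passed an adjusted p-value of 0.05. DESeq2 called 72 genes (24 higher, 48 lower) and 4 members, the limma pipeline 2246 genes (1131 higher, 1115 lower) and 16 members (Mpo, Fcnb, Cd177, Pglyrp1, Padi4, Asprv1, Rasgrp4, Csf3r, Cxcr2, Ly6g, Clec4d, Clec5a, Trem1, Trem3, Lyz2 and Ncf1). Leaving out 1 library gave 0 to 2 genes (2 without Dmp1Cre.EfnB2f/f library 3 and 2 without control 4) and leaving out controls 1 and 4 gave 2, with 0 members. Of the 37 members, 21 had an unadjusted p-value under 0.05, where 5.03% of all genes were lower. There were 3 when the parent cross was a block (where 0.987% were lower), 8 to 23 without 1 library (1.03% without Dmp1Cre.EfnB2f/f library 1 to 8.51% without control 3), and 16 to 29 in the other alternatives without a block (3.69% with library totals alone to 17.7% with the limma pipeline). The median log2 fold change without 1 library ran from -0.74 to -0.39 for primary granules, -0.64 to -0.30 for the early stage, -0.78 to -0.53 for secondary and tertiary granules, -0.58 to -0.31 for intracellular proteins, -0.52 to -0.46 for receptors and -0.49 to -0.16 for shared genes. With the parent cross as a block it was 0.11 for primary granules, 0.10 for the early stage, -0.18 for secondary and tertiary granules and -0.41 for shared genes. That estimate rests on 1 pair of libraries. There Mpo gave 0.18, Elane 0.091, Prtn3 0.13, Ctsg 0.035, Ms4a3 0.010, Fcnb 0.041, Cebpe 0.16 and Gfi1 0.16. Without controls 1 and 4 the medians were -0.16 for primary granules, -0.52 for intracellular proteins and -0.47 for shared genes, and the limma pipeline gave -0.46 for shared genes. Anxa1 turned sign with library totals alone (0.049), upper-quartile factors (0.0084) and without 1 library (-0.12 to 0.12, of which 0.07 and 0.02 without Dmp1Cre.EfnB2f/f libraries 1 and 3, 0.10 and 0.12 without controls 2 and 3). Il1b was 0.14 without Dmp1Cre.EfnB2f/f library 2 and S100a9 0.021 without control 2, in a range from -0.23 to 0.021. The cause of these shifts was not tested. Of the 37, 26 were negative in all 18 alternatives. How many of all genes stayed negative was not counted, and the alternatives reuse the same libraries. The last 2 alternatives, without controls 1 and 4 and without marker lists before scaling, were chosen after seeing the data.

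Deviations from the group means correlated at -0.14, 0.06 and -0.42 for replicate numbers 1, 2 and 3, so the numbers were not taken to pair the samples. With the replicate number as a block, 1 gene and 0 members were called, 7 members had an unadjusted p-value under 0.05, where 1.44% of all genes were lower, and the median of intracellular proteins was -0.53.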
